A study of Homo sapiens with 24 samples.

Results

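Clone 39 of the T47D dTAG-TRPS1 cells was compared at baseline, in vehicle alone, with Clones 28 and 35. Its 4 DMSO libraries, taken by their labels, are 4 of the 24 libraries of the series, and they were set against the 8 DMSO libraries of Clones 28 and 35. A gene was ascribed to Clone 39 when it differed from both other clones in the same direction, and stretches of chromosome were examined for genes that differed together. The series measured nascent transcription by PRO-seq to learn how acute loss of the transcription factor TRPS1 acts on genes in luminal breast cancer cells. The 3 clones were each assayed to test how robust the response of estrogen receptor target genes is. In every clone a cassette with a hygromycin resistance gene, an HA epitope and an FKBP degron was inserted at the 5′ end of the endogenous *TRPS1* gene, part of the copies of *TRPS1* carry a knockout instead, and only tagged protein is made. All 3 clones descend from an earlier puromycin-selected T47D clone in which no insertion into *TRPS1* was found. Each line is 1 clone, grown in RPMI with fetal bovine serum and insulin. Baseline dishes of each clone were given vehicle, DMSO at 0.1% by volume, for 90 minutes. Parallel dishes of each clone had 100 nM dTAG-13, a compound that joins the degron to cereblon, for the same 90 minutes, and served here as further libraries of the same clones. Each clone and treatment has 4 replicates. Replicates were collected at different times within 1 day. The replicate number was read as a collection time shared by the clones and was used to pair libraries across them. The labels do not state this.

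PRO-seq sequences the 3′ ends of RNA still held by engaged RNA polymerase, so that a gene's reads follow its transcription rather than its stored mRNA. T47D is an estrogen receptor-positive luminal breast cancer line with many gained and lost chromosome parts. Cells of such a line differ from each other in chromosome content and in which genes are silenced, and a clone carries forward the state of the cell that founded it. Copy number was not measured here, and its part in any difference between the clones was not tested.

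The Clone 39 DMSO libraries held 5192713, 3950161, 3626852 and 4972292 reads in genes. Clone 28 had 4185233 to 5108645 and Clone 35 had 4287721 to 7106656, so that the ranges of all 3 clones overlapped. Levels are given below as CPM, a gene's reads scaled to a common library size with TMM factors. They are not divided by gene length, so they compare libraries and not genes.

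Labels were checked against the values. Each of the 8 Clone 39 libraries, in DMSO or dTAG-13, correlated best with another Clone 39 library. Of all 24 libraries, 22 had their best match in their own clone. Clone 28 DMSO replicate 1 and Clone 35 dTAG-13 replicate 2 were each other's best match. On a scale made of 93 genes higher and 81 genes lower in Clone 28 than in Clone 35 in DMSO, with Clone 35 DMSO at 0 and Clone 28 DMSO at 100, Clone 35 dTAG-13 replicate 2 stood at 33.5%. The other Clone 35 dTAG-13 libraries stood at -7.59% to 4.70% and the Clone 28 dTAG-13 libraries at 62.0% to 75.1%. That library therefore stands apart from its group, and the counts of called genes and bins in dTAG-13 are also given without it. A like scale separates Clone 39 from the others and is set by the DMSO libraries, so that only dTAG-13 libraries test it. On it the 4 Clone 39 dTAG-13 libraries stood at 91.6% to 94.9% and the other 8 at -5.06% to 5.899%.

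The cells carried the transcription of luminal epithelium in every clone. The 17 luminal markers summed to 3789 to 4315 CPM in the Clone 39 libraries and to 3650.2 to 4732 CPM in the others, led by *ESR1*, the estrogen receptor gene, and none of them was under 1 CPM on average. Basal and myoepithelial markers summed to 286 to 357 CPM in Clone 39, led by *KRT15*, with 7 of 15 under 1 CPM. Mesenchymal markers summed to 95.1 to 112 CPM, led by *SNAI1*, with 5 of 17 under 1 CPM. Blood cell markers summed to 13.8 to 17.3 CPM, led by *CD68*, with 8 of 11 under 1 CPM, and endothelial markers to 5.96 to 7.38 CPM, led by *VWF*, with 4 of 7 under 1 CPM. The sums of blood cell and endothelial markers were lower in each Clone 39 library than in any of the 8 others, while the other sums overlapped. Most of the blood cell sum is *CD68*, which lies in the lower stretch of chromosome 17 described below. Without it the sums overlapped, at 5.96 to 9.38 CPM in Clone 39 and 6.51 to 9.39 CPM in the others. *VWF* was not called in the dTAG-13 libraries, with log2 fold changes of -0.18 and -0.37, adjusted p-values of 0.657 and 0.304, and 1.56 to 4.699 CPM in Clone 39 against 2.99 to 5.71 CPM in the others, which overlap. Each line is 1 clone of T47D, and the source of these low levels was not tested. In bulk libraries, fewer cells of a type and less RNA per cell cannot be told apart.

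*TRPS1*, the tagged gene, encodes a GATA-family repressor. Its level in Clone 39 was 8807, 8059, 6311 and 6429 CPM in replicates 1 to 4. Clone 28 had 7381, 7223, 5306 and 5206 CPM and Clone 35 had 7838, 7531, 5819.7 and 5571 CPM. The libraries of the 3 clones overlapped, while within each replicate number Clone 39 was the highest. With the replicate number as a block the log2 fold change was 0.24 (SE 0.0228) against Clone 28 and 0.15 (SE 0.0228) against Clone 35, with edgeR quasi-likelihood, Benjamini-Hochberg adjusted p-values of 3.53e-14 and 2.22e-07. Without the block the smaller of these was 0.15 and the call was lost.

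Clone 39 stood apart from the other clones over the whole transcriptome. The first principal component of the 12 DMSO libraries held 36.7% of the variance and placed Clone 39 at 36.1 to 42.7, far from Clone 35 at -21.3 to -12.3 and Clone 28 at -25.5 to -19.2. The second held 17.1% and followed the replicate number. Of 21254 genes tested, 2266 (10.7%) were higher and 2828 (13.3%) were lower in Clone 39 than in both other clones. A gene was called when both contrasts had a Benjamini-Hochberg adjusted p under 0.1 by edgeR's quasi-likelihood method. Both contrasts share the Clone 39 libraries. The 5094 calls became 3327 without the replicate block and 3013 with DESeq2. Under the same rule Clone 28 had 1092 genes higher and 679 lower than both others, and Clone 35 had 418 and 518. Differences of at least 2-fold in both contrasts were fewer, 197 genes (0.927%) higher and 336 (1.58%) lower. The smaller of the pair of log2 fold changes had a median of 0.31 over the genes called higher and -0.46 over those called lower. The 4 Clone 39 libraries lay below all 8 others for 1653 genes and above them for 1176, of which 1603 and 1111 were called. Replicates are dishes of 1 clone collected on 1 day, so p-values measure only the spread between such dishes.

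Genes higher in Clone 39 were longer than most. Their median length was 68.0 kb, against 33.1 kb for genes called lower and 29.0 kb for all genes tested. By quartile of gene length, from short to long, the share called higher was 4.49%, 7.30%, 12.02% and 18.7%, while the share called lower was 12.8%, 12.2%, 13.2% and 14.9%. Longer genes gather more reads, and genes called higher had a median of 47.6 CPM against 23.6 CPM over all genes tested. The part of read number in these shares was not tested. Over all genes of the longest quartile the median log2 fold changes were 0.009 against Clone 28 and 0.040 against Clone 35. Among protein-coding genes whose promoter window was found, genes at least 2-fold lower had a median of 18.5 CG dinucleotides in 300 bases, against 26 over all protein-coding genes tested. Genes at least 2-fold higher also had fewer, with a median of 22, while all genes called lower had 24 and all genes called higher had 28. Both 2-fold classes also had fewer reads per gene, with medians of 7.08 CPM for lower and 9.66 CPM for higher genes against 23.6 CPM over all genes tested. These values are not divided by length, and the median lengths were 21.1, 64.5 and 29.0 kb in the same order. The 2-fold lower genes outside the chromosome stretches described next had a median of 14 CG dinucleotides.

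Many of the genes lower in Clone 39 lie together on chromosomes. The genome was divided into bins of 5 Mb by gene midpoint, and the score of a bin in a library was the median over its genes of log2 CPM relative to each gene's mean. Of 539 bins with at least 10 genes tested, 45 (8.35%) were lower and 5 (0.928%) higher in Clone 39 than in both other clones, at an adjusted p under 0.1 in limma and a difference of at least 0.2 on the log2 scale. The adjusted p alone gave 200 bins, so the count rests on the size required. The number of higher bins also moved with the score, to 12 with the mean over genes and 1 with bins of 10 Mb. The same rule gave 12 bins higher and 0 lower in Clone 28, and 0 either way in Clone 35. Adjacent bins joined into 12 lower and 4 higher segments, 10 of them a single bin. The lower bins span 225 Mb and hold 1630 genes, 7.67% of those tested, and 1034 of the 2828 genes called lower, or 36.6%. The bins were chosen by these same genes and libraries, so the share of called genes inside them follows in part from that choice; the dTAG-13 libraries, given last, had no part in it. Just inside the threshold was chromosome 3 from 0 to 5 Mb, with differences of -0.21 and -0.27 against Clones 28 and 35, and just outside it was chromosome 3 from 70 to 75 Mb, with -0.22 and -0.19. All positions are on hg38.

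**Figure D1:**
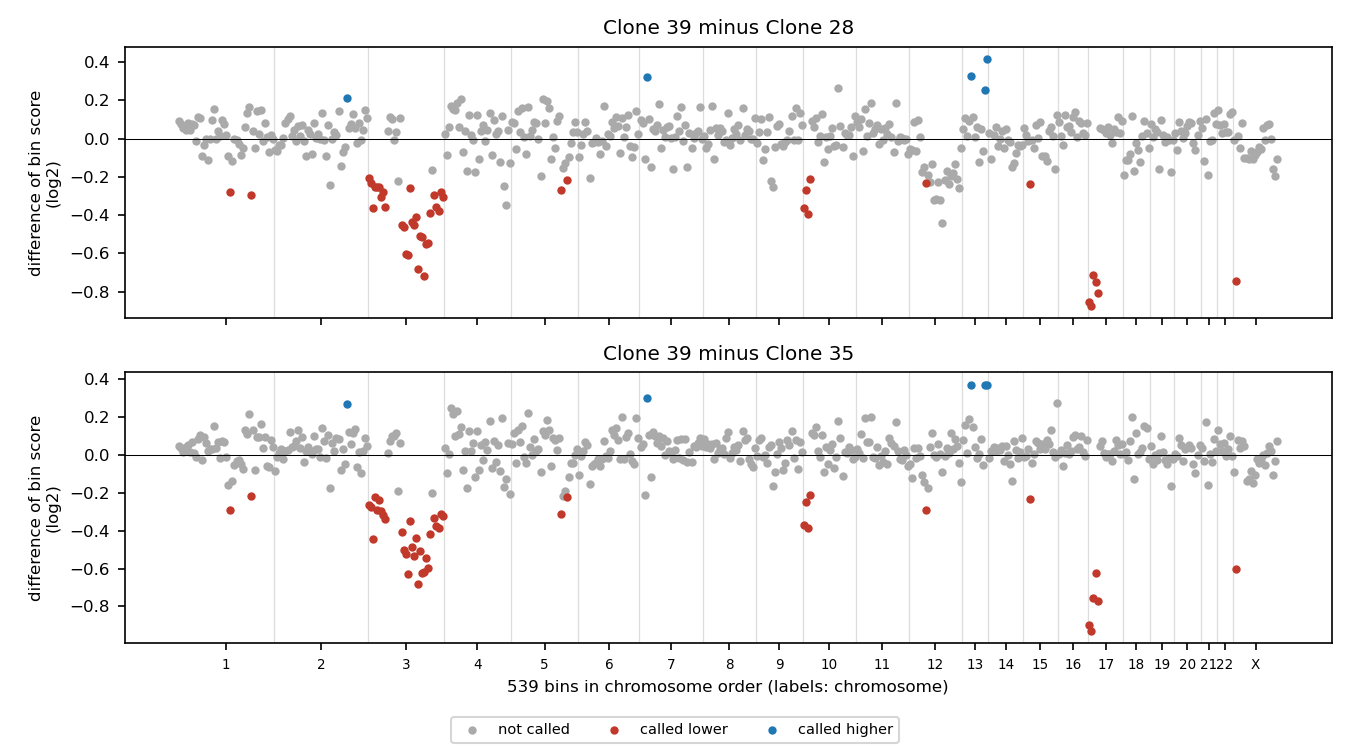
Difference of the bin score (log2) between Clone 39 and Clone 28 (top) and Clone 39 and Clone 35 (bottom) for each of 539 bins of 5 Mb, in chromosome order and labelled by chromosome; each point is 1 bin. Red points, the 45 bins called lower, gather on chromosomes 3, 10 and 17, and blue points mark the 5 bins called higher.

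The short arm of chromosome 17 was the stretch with the largest difference. From 0 to 25 Mb, 297 of 356 genes tested were called lower in Clone 39 and 0 higher, with median log2 fold changes of -0.87 against Clone 28 and -0.88 against Clone 35. Over all genes tested the medians were -0.01 and 0.00. Segment scores in the 4 Clone 39 libraries were -0.58 to -0.52, against 0.25 to 0.32 in the 8 others, with no overlap. Summed over its genes, the segment had a mean of 6892 CPM (SD 88.6, n = 4) in Clone 39, which is 54.6% of Clone 28 and 56.3% of Clone 35. At least 2-fold lower were 74 of its genes. The difference ended between 22 and 27 Mb: from 21 to 22 Mb 7 of 7 genes were called lower, from 27 to 28 Mb 2 of 9 were lower and 2 higher, and from 28 to 29 Mb 2 of 42 were lower. Its called protein-coding genes with the most reads were *RABEP1*, which acts in endosome fusion, *RAI1* and *MPRIP*, which binds myosin phosphatase. *RABEP1* was at 184, 175, 136 and 138 CPM in Clone 39, 369, 339.9, 274 and 267 in Clone 28 and 313, 303, 251 and 243 in Clone 35. The log2 fold changes of *RABEP1* were -0.98 (SE 0.0409) against Clone 28 and -0.81 (SE 0.0407) against Clone 35. *RAI1* stood at -0.85 and -0.91 and *MPRIP* at -0.95 and -1.05.

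Genes often mutated in breast tumors lie on this stretch of chromosome 17. *MAP2K4*, a kinase of the JNK pathway, was at 48.4, 41.01, 43.6 and 37.3 CPM in Clone 39 and at 64.7 to 82.1 CPM in the 8 other libraries. Its log2 fold changes were -0.81 (SE 0.0712) against Clone 28 and -0.88 (SE 0.06899) against Clone 35. The nuclear receptor corepressor *NCOR1* was at 84.6, 88.2, 71.8 and 76.6 CPM against 124 to 147, with -0.81 and -0.74. *SREBF1*, a regulator of lipid synthesis that overlaps *RAI1* on the other strand, stood at -1.11 and -1.16, and the ribosomal protein gene *RPL26* at -0.89 and -1.07. For each of these genes the Clone 39 libraries lay below all 8 others.

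Chromosome 3 was lower in Clone 39 over 3 segments, and 595 of its 1215 genes tested (49.0%) were called lower. The longest ran from 95 to 170 Mb, with 281 of 411 genes called lower and 11 higher, and median log2 fold changes of -0.50 against Clone 28 and -0.54 against Clone 35. Its summed level was 15560.0 CPM (SD 792, n = 4) in Clone 39, 69.4% of Clone 28 and 69.1% of Clone 35. From 0 to 45 Mb, 153 of 274 genes were called lower, with medians of -0.30 against Clone 28 and -0.33 against Clone 35, and the summed level was 84.9% and 84.3% of the others. The loss of signal ended near 46 Mb: 9 of 12 genes from 45 to 46 Mb were called lower and 1 of 7 in the next Mb. From 175 to 200 Mb, 122 of 212 genes were called lower, with medians of -0.33 against Clone 28 and -0.35 against Clone 35. Segment ends follow the bins, and lower genes also lay beyond some of them. Between 94 and 95 Mb 4 of 4 genes were called lower. Between 170 and 171 Mb 5 of 11 were lower and 1 higher, and between 172 and 173 Mb 2 of 7 were lower. Segment scores did not overlap between Clone 39 and the others in any of the 3. In the longest they were -0.38 to -0.28 in Clone 39 against 0.12 to 0.22 in the other 8 libraries.

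Single genes of chromosome 3 illustrate the size of these differences. *STAG1*, a cohesin subunit, was at 313, 286, 269 and 301 CPM in Clone 39 and 397 to 465 CPM in the others, with log2 fold changes of -0.61 (SE 0.0386) against Clone 28 and -0.48 (SE 0.0385) against Clone 35. The kinase gene *GSK3B* stood at -0.33 and -0.37. *DLG1*, a scaffold of cell junctions, was at -0.23 and -0.21, with overlapping libraries, and the translation factor gene *EIF4A2* at -0.48 and -0.42. *GOLGA4*, which encodes a Golgi tether, was at -0.21 and -0.22 with libraries that overlapped between clones. *XPC*, a DNA repair gene, was at -0.56 and -0.60 and *LMCD1* at -1.18 and -1.25. The call of *GOLGA4* was lost without the replicate block. *NAALADL2*, at the start of the segment from 175 Mb, was at 673, 591, 438 and 435 CPM in Clone 39 and at 1214 to 1762 CPM in the others. Its log2 fold changes of -1.45 (SE 0.0333) against Clone 28 and -1.55 (SE 0.0333) against Clone 35 are far from the median of its segment.

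Some genes inside the lower segments were higher in Clone 39 all the same. *P3H2*, *CLDN16* and *CLDN1* are neighbors near 190 Mb of chromosome 3; *CLDN16* and *CLDN1* were named after their values were seen. *P3H2*, a collagen prolyl 3-hydroxylase gene, was at 35.8, 36.6, 31.4 and 34.5 CPM in Clone 39 and 1.25 to 3.72 CPM in the others, with log2 fold changes of 4.02 (SE 0.175) against Clone 28 and 3.72 (SE 0.158) against Clone 35. *CLDN1*, which encodes a tight junction claudin, averaged 115 CPM in Clone 28, 222 in Clone 35 and 653 in Clone 39. *CLDN16* averaged 9.96, 19.03 and 65.5 CPM in the same order. On the short arm, the chromatin organizer gene *SATB1* was at 464, 455, 368 and 372 CPM against 139 to 217, with log2 fold changes of 1.40 (SE 0.0412) against Clone 28 and 1.05 (SE 0.0399) against Clone 35. *TBC1D5*, which overlaps *SATB1* on the same strand, was at 0.43 and 0.39. *MECOM*, a zinc finger transcription factor gene, was at 0.12 and 0.33, with libraries that overlapped and a call that was lost without the block. In all, 33 genes in lower bins were called higher, or 2.02% of those tested there, against 11.4% elsewhere. The lower bins were chosen by these same genes, so this low share follows in part from that choice.

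Smaller segments were found on other chromosomes. Chromosome 10 from 0 to 20 Mb had 59 of 105 genes lower, with medians of -0.31 against Clone 28 and -0.31 against Clone 35, among them *GATA3*, the luminal transcription factor. *GATA3* was at 752, 784, 768 and 719.9 CPM in Clone 39 and 749.7 to 989 CPM in the others, which overlapped, with log2 fold changes of -0.26 and -0.14. *PFKFB3*, a regulator of glycolysis, stood at -0.19 and -0.25 and *LARP4B*, an RNA-binding protein gene, at -0.33 and -0.40. The calls of *GATA3* and *PFKFB3* were lost without the block. On chromosome X from 5 to 10 Mb, 7 of 10 genes were lower, chosen for naming after their values were seen: *NLGN4X*, a synaptic adhesion gene, at -1.55 and -1.43, *STS*, the steroid sulfatase gene, at -1.04 and -1.18, and *PUDP* at -0.26 and -0.32. The other lower segments were single bins on chromosomes 1, 5, 12 and 15. The bin on chromosome 12 from 45 to 50 Mb had 37 of 74 genes lower, that on chromosome 5 from 140 to 145 Mb 50 of 114, and that on chromosome 15 from 35 to 40 Mb 11 of 24. In the last, *FSIP1* was at -1.40 and -2.09. The bin on chromosome 5 holds 47 tested genes of the clustered protocadherins, described below. They make up 25 of its 50 lower calls, and some of them share exons.

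A stretch near the end of chromosome 13 was higher in Clone 39. From 105 to 115 Mb, 25 of 54 genes were called higher and 1 lower, with medians of 0.37 against Clone 28 and 0.38 against Clone 35, and the summed level was 2216 CPM (SD 15.5, n = 4), 141% of Clone 28 and 136% of Clone 35. Calls were uneven along it. From 110 to 111 Mb 7 of 11 genes were called higher and from 113 to 114 Mb 6 of 17. From 108 to 109 and from 114 to 115 Mb 0 of 4 were called. *ARHGEF7*, a guanine nucleotide exchange factor, was at 179, 171, 178 and 171 CPM in Clone 39 and 95.9 to 117 CPM in the others, with log2 fold changes of 0.80 (SE 0.0483) against Clone 28 and 0.67 (SE 0.0468) against Clone 35. *CARS2*, a mitochondrial tRNA synthetase gene, was at 0.61 and 0.62 and *GRTP1* at 0.52 and 0.53. The other higher segments were single bins on chromosome 13 from 35 to 40 Mb, with 10 of 21 genes higher, on chromosome 7 from 15 to 20 Mb, with 9 of 17, and on chromosome 2 from 190 to 195 Mb, with 4 of 17.

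**Figure D2:**
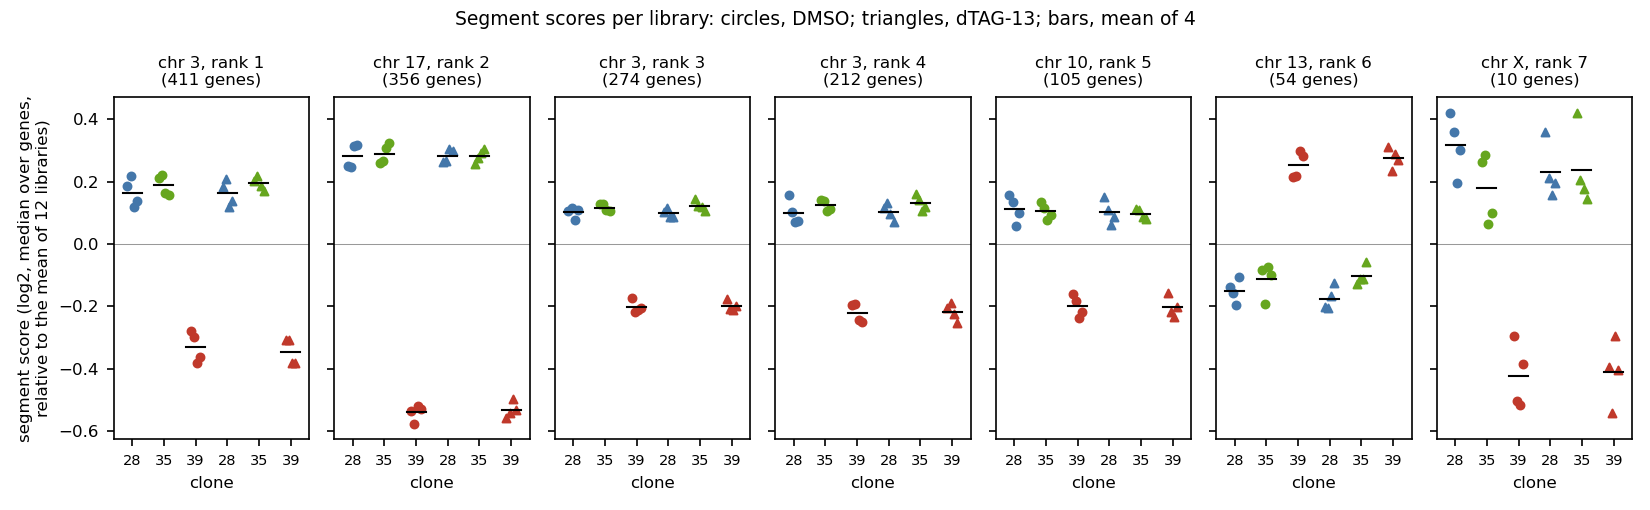
Segment scores (log2, median over genes, relative to the mean of the 12 DMSO libraries) in each library for the 7 segments ranked first by size and difference; circles are DMSO, triangles dTAG-13, colors mark the clone and bars the mean of 4 libraries. In each of the 7 the Clone 39 DMSO libraries lie on 1 side of the 8 others, below in 6 and above on chromosome 13.

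Outside the segments, and within them, single genes were lower in Clone 39 by far more than the stretches of chromosome. Promoter windows of the 3 leading lower genes are shown so that their starts can be read beside their levels. Each window is 300 bases on the gene's own strand, from 250 before to 50 after the RefSeq start (GRCh38.p14), printed 5′ to 3′ with CG dinucleotides in capitals. The windows lie at chr19:51531621-51531920 on the minus strand, chr3:165837374-165837673 on the minus strand and chr10:52314031-52314330 on the plus strand.
SIGLEC6: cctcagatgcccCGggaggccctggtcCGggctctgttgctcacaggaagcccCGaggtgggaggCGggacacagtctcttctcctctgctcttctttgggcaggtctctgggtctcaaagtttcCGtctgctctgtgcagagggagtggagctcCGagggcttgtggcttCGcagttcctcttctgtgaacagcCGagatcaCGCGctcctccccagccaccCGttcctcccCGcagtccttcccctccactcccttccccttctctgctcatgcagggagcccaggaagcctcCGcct
BCHE: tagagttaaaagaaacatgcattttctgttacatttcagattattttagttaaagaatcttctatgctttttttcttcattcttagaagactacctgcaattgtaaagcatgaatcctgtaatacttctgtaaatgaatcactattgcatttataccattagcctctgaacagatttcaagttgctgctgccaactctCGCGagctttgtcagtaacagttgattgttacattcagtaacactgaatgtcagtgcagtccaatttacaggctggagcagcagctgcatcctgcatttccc
DKK1: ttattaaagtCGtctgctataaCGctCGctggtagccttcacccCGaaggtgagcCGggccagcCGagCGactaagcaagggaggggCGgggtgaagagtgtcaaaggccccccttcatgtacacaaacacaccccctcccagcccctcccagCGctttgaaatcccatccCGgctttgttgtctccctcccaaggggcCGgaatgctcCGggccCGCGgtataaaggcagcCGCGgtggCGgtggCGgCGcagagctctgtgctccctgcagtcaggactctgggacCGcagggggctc
They hold 13, 2 and 20 CG dinucleotides, and 51.8%, 20.5% and 61.8% of 22114 RefSeq promoter windows of this length hold at most as many. The median over all windows is 12, against 26 over the protein-coding genes tested, given above. Of the 164 named genes, 126 had an entry among these windows.

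*SIGLEC6*, which encodes a sialic acid-binding lectin, was at 0.603, 0.258, 0 and 0.399 CPM in Clone 39, from 6 reads in all. Clone 28 had 31.5, 30.7, 25.5 and 19.9 CPM and Clone 35 had 38.4, 40.5, 29.6 and 30.2 CPM. The log2 fold changes of *SIGLEC6* were -6.19 (SE 0.253) against Clone 28 and -6.57 (SE 0.234) against Clone 35, the largest of the genes named by the rule. *BCHE*, the butyrylcholinesterase gene on chromosome 3, was at 5.83, 5.67, 4.34 and 5.59 CPM in Clone 39. In Clone 28 it was at 241, 214, 173 and 169 CPM and in Clone 35 at 209, 194, 159.6 and 157 CPM, more than any Clone 39 library by a wide margin. Its log2 fold changes of -5.20 (SE 0.07798) against Clone 28 and -5.06 (SE 0.0781) against Clone 35 had edgeR adjusted p-values of 4.11e-57 and 2.57e-56. *DKK1*, a secreted Wnt inhibitor gene, had 4 reads in all in Clone 39, or 0.201, 0.516, 0 and 0.1996 CPM, against 3.79 to 6.76 CPM in the other libraries. Its log2 fold changes were -4.24 (SE 0.453) against Clone 28 and -4.63 (SE 0.416) against Clone 35. *BCHE* overlaps *LINC01322* and *DKK1* overlaps *PRKG1-AS1* on the other strand.

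The next genes by size of difference were of many kinds. *SKAP2*, which encodes an adaptor of Src-family kinases, was at 22.1, 23.98, 18.7 and 21.6 CPM in Clone 39, 388, 363, 322 and 369 in Clone 28 and 580.2, 527, 471 and 513 in Clone 35. The fall in *SKAP2* measured -4.06 (SE 0.0517) against Clone 28 and -4.60 (SE 0.0512) against Clone 35 on the log2 scale. *DOCK10*, also a guanine nucleotide exchange factor, was at 9.24, 9.03, 9.49 and 10.8 CPM in Clone 39 and at 110.0 to 153 CPM in the others, with log2 fold changes of -3.76 (SE 0.0831) against Clone 28 and -3.77 (SE 0.08205) against Clone 35. *ATP11B*, a phospholipid flippase gene on chromosome 3, was at 2.81, 2.84, 1.63 and 4.99 CPM against 30.96 to 43.2, or -3.47 and -3.58 on the log2 scale. *GJA1*, which encodes connexin 43, was at 0.402, 1.03, 0.542 and 0.798 CPM in Clone 39, with Clone 35 at 3.102, 6.25, 5.73 and 5.66 and Clone 28 at 19.01, 10.7, 10.8 and 9.27. Here the other clones also differ from each other, and the log2 fold changes were -4.12 and -2.95. A like order, with Clone 28 highest, was seen in *SOX2*, a pluripotency factor gene at 0.482 CPM in Clone 39, 3.44 in Clone 35 and 11.4 in Clone 28, in the orphan nuclear receptor gene *NR2F1* at 0.432, 2.93 and 7.25, and in the potassium channel gene *KCNJ3* at 1.86, 10.9 and 32.8. The log2 fold changes of *SOX2* were -4.40 and -2.67, those of *NR2F1* -4.08 and -2.83 and those of *KCNJ3* -4.15 and -2.55. *PTGES*, the prostaglandin E synthase gene, was at -3.08 and -2.69. The remaining leading genes were *ESYT3* at -3.10 and -3.40, *P2RY10*, a G protein-coupled receptor gene, at -3.35 and -3.04, *LRRN3* at -2.93 and -3.44 and *CAPN13*, a calpain, at -2.79 and -2.81. Clone 39 had in all 9 reads of *SOX2*, 7 of *NR2F1*, 12 of *GJA1*, 11 of *ESYT3* and 14 of *P2RY10*. The fold changes of these genes rest on few reads, and *SOX2* overlaps *SOX2-OT* on the same strand.

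The genes most raised in Clone 39 lay outside the higher segments. Promoter windows are shown in the same form for the 3 leading higher genes with 1 RefSeq window, to set beside those of the lower genes. They lie at chr1:91886102-91886401 on the minus strand, chr17:73164760-73165059 on the plus strand and chr11:107018427-107018726 on the minus strand.
TGFBR3: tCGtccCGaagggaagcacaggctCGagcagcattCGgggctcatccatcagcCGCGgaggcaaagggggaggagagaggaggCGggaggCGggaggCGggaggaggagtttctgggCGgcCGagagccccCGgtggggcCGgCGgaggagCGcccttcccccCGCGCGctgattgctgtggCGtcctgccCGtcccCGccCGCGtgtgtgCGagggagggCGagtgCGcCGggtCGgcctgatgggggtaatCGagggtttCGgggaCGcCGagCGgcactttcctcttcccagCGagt
SSTR2: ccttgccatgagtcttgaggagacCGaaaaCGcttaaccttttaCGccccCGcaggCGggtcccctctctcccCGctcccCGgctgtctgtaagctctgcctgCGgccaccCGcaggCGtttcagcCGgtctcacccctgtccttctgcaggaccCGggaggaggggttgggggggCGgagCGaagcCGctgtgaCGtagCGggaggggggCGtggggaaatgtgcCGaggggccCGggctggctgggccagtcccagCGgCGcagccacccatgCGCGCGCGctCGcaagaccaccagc
GUCY1A2: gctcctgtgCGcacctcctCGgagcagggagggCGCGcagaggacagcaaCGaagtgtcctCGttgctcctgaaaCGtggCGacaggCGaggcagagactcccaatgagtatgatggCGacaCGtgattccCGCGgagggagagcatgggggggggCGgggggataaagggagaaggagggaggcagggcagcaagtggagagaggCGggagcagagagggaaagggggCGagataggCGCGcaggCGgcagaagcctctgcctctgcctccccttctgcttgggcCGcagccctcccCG
These hold 34, 27 and 21 CG dinucleotides, and 86.6%, 75.02% and 63.5% of all windows hold at most as many. The counts describe these letters only.

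*TGFBR3*, which encodes the TGF-beta coreceptor betaglycan, was at 129, 109, 109 and 125 CPM in Clone 39. Clone 28 had 6.25, 9.46, 7.36 and 5.72 CPM and Clone 35 had 5.73, 4.39, 7.44 and 7.46 CPM, so that the groups lay far apart. The log2 fold changes were 4.02 (SE 0.109) against Clone 28 and 4.20 (SE 0.105) against Clone 35, with edgeR adjusted p-values of 2.78e-30 and 1.79e-31. *NTN4*, a netrin of the basement membrane, was at 52.03, 44.9, 38.5 and 40.1 CPM in Clone 39 and at 1.93 to 4.53 CPM in the others, and its log2 fold changes were 3.88 (SE 0.154) against Clone 28 and 3.98 (SE 0.146) against Clone 35. *GUCY1A2*, a subunit of soluble guanylate cyclase, was at 142, 118, 101 and 105 CPM against 9.87 to 22.8, with 2.84 (SE 0.09097) against Clone 28 and 2.83 (SE 0.0865) against Clone 35. The somatostatin receptor gene *SSTR2*, on the long arm of chromosome 17, was at 14.1, 12.6, 12.2 and 13.4 CPM against 0.631 to 2.76, or 3.37 and 3.05 on the log2 scale. Leading genes were chosen among those without overlap between Clone 39 and the other clones. *TMEM52B* and *OLR1*, the receptor gene for oxidized LDL, overlap each other on opposite strands and stood at 3.98 and 3.81 and at 3.22 and 3.18. *ARHGAP22*, a Rac GTPase-activating protein gene, was at 3.19 and 3.18, *PPARGC1A*, a coactivator of mitochondrial biogenesis, at 2.86 and 2.86, and *PROM1*, which encodes the surface protein CD133, at 3.03 and 2.73. *FRMD3* was at 2.76 and 2.76, *CCN5*, a matricellular protein gene, at 3.07 and 2.78, *PAMR1* at 2.71 and 2.58, *NECAB1* at 2.41 and 2.68 and *NCMAP* at 2.38 and 2.35.

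**Figure D3:**
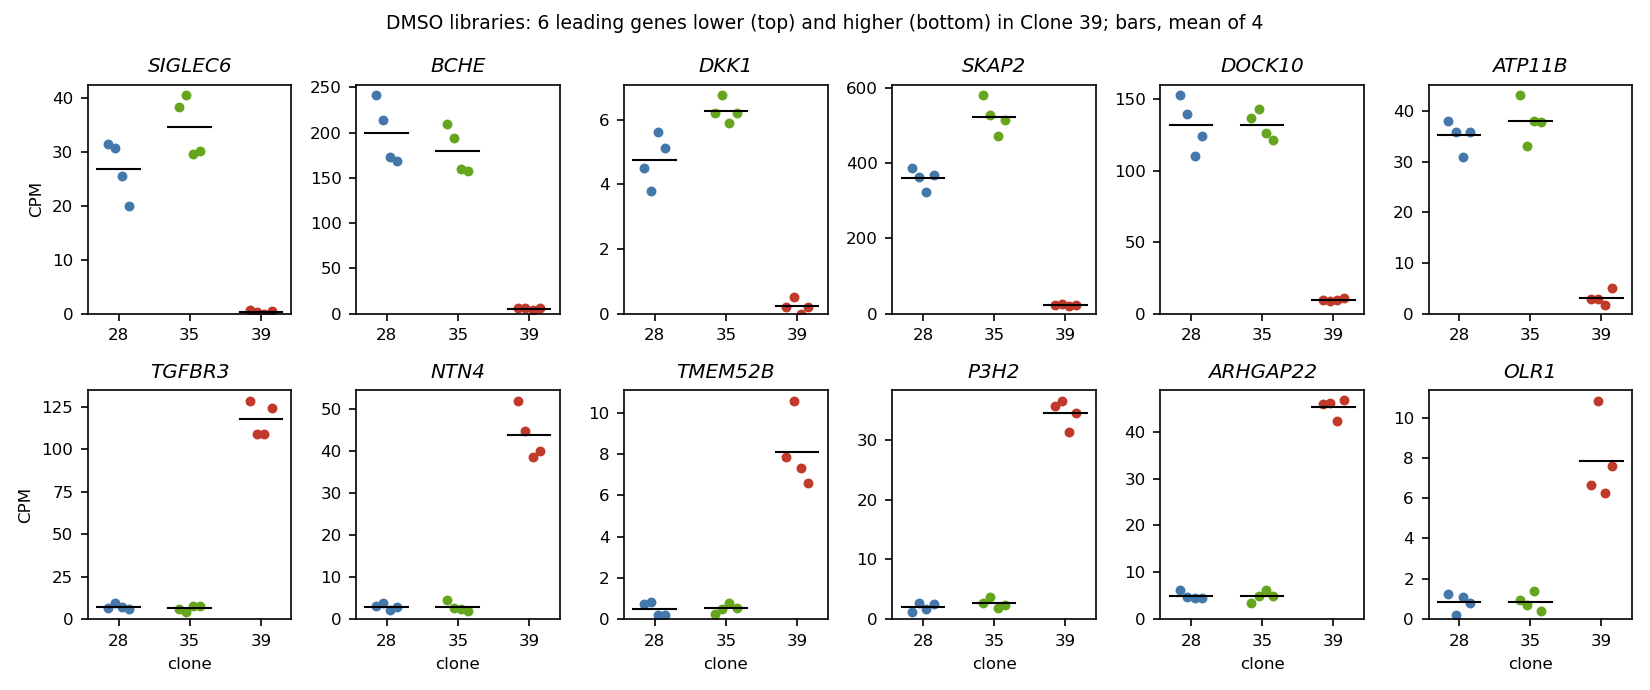
CPM after TMM scaling in each DMSO library for the 6 leading genes lower (top) and the 6 leading genes higher (bottom) in Clone 39, by clone; each point is 1 library and the bar is the mean of 4. The genes were chosen among those whose Clone 39 libraries lie on 1 side of the 8 others.

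Among the called genes with the most reads, differences were smaller. *ERBB4*, a receptor tyrosine kinase gene of the EGF receptor family, was at 1675, 1637, 1261 and 1296 CPM in Clone 39, 820.3, 819, 625 and 672 in Clone 28 and 808, 868, 722 and 717 in Clone 35, with no overlap. Its log2 fold changes were 0.998 (SE 0.0328) against Clone 28 and 0.91 (SE 0.0326) against Clone 35. *INPP4B*, a phosphoinositide phosphatase gene, was at 1359.9 CPM in Clone 28, 1580.3 in Clone 35 and 2104 in Clone 39, and *GRHL2*, an epithelial transcription factor gene, at 964 CPM in Clone 28, 875 in Clone 35 and 1159 in Clone 39. Their log2 fold changes were 0.63 and 0.41 for *INPP4B* and 0.27 and 0.41 for *GRHL2*, and their libraries overlapped between clones. *PHACTR1*, a regulator of protein phosphatase 1 and actin, was lower at -0.40 and -0.30, as was *PATJ*, a scaffold of cell polarity, at -0.56 and -0.38, the last with overlapping libraries. *CCDC200* was at -0.64 and -0.61; it overlaps copies of the U2 small nuclear RNA, and their reads cannot be told apart. *MED13L*, a Mediator subunit gene, at 0.08 and 0.47, and *GSE1*, at 0.21 and 0.10, lost their calls without the block.

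Most interferon response genes on a list with antigen presentation genes were called higher in Clone 39. Of 30 tested, 19 (63.3%) were called higher and 1 (3.33%), *HLA-E*, lower, against 10.7% and 13.3% over all genes tested. Of antigen presentation, only *TAP2*, *PSMB9* and *NLRC5* were called higher. Median log2 fold changes of the list were 0.74 and 0.38 against Clones 28 and 35. The summed level of the list was 533 CPM (SD 12.5) in Clone 28, 673 (SD 52.96) in Clone 35 and 1012 (SD 65.5) in Clone 39, n = 4 each. *IFI27* was at 83.8, 66.5, 74.3 and 89.6 CPM in Clone 39 and 19.8 to 28.3 CPM in the others, with log2 fold changes of 1.92 (SE 0.0846) against Clone 28 and 1.70 (SE 0.0785) against Clone 35. *IFI44* was at 14.9, 11.3, 7.86 and 11.97 CPM in Clone 39, 3.58, 2.36, 1.704 and 3.59 in Clone 35 and 0.751, 0.631, 1.08 and 0.395 in Clone 28, so that Clone 35 lay between the others. *IFIT3*, which encodes a protein that binds viral RNA, stood at 2.90 and 1.66 and *OASL*, of the oligoadenylate synthetase family, at 2.37 and 1.51. All 4 rose beyond every library of the other clones.

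Of 17 output genes of the YAP and TEAD pathway tested, 10 (58.8%) were called higher and 1 (5.88%) lower. Over all genes tested the shares were 10.7% and 13.3%. The list had medians of 0.44 and 0.34 and summed levels of 1966, 2044 and 2596 CPM in Clones 28, 35 and 39. *CRIM1* was at 377, 313, 286 and 301 CPM in Clone 39 and 112 to 183 CPM in the others, with log2 fold changes of 1.35 (SE 0.0422) against Clone 28 and 1.07 (SE 0.0408) against Clone 35. *TGFB2*, a TGF-beta ligand gene, stood at 1.13 and 1.20 and the matricellular gene *CCN1* at 0.79 and 0.76. *ANKRD1* was at 2.61, 2.32, 2.71 and 2.79 CPM in Clone 39, 0.239, 0.169, 0.465 and 0.276 in Clone 35 and 0, 0, 0 and 0.197 in Clone 28; the last is 1 read, so that only the log2 fold change against Clone 35, 3.06, is given.

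Calls among estrogen-linked and luminal genes differed by list. Of 30 genes tested that estrogen is long known to induce, 13 (43.3%) were higher and 4 (13.3%) lower in Clone 39, against 10.7% and 13.3% over all genes tested, with medians of 0.06 and 0.16. *KCNK5*, a potassium channel gene, was at 93.2, 83.3, 90.5 and 93.4 CPM in Clone 39 and 21.4 to 37.3 CPM in the others, with log2 fold changes of 1.46 (SE 0.0785) against Clone 28 and 1.97 (SE 0.0797) against Clone 35. The cofactor gene *FHL2* stood at 1.11 and 0.89, the trefoil factor gene *TFF1* at 1.32 and 0.94 and *CTSD*, which encodes cathepsin D, at 0.68 and 0.87. Estrogen receptor cofactors had 5 of 19 higher and 3 lower, with medians of 0.03 and 0.10; *NRIP1*, a corepressor gene, was at 0.56 and 0.78, with libraries that overlapped. Luminal transcription factors had 6 of 20 higher and 7 lower, with medians of -0.09 and 0.03. Among them *TFAP2C* was lower at -0.65 and -0.50. Luminal markers had 4 of 17 higher and 6 lower, with medians of -0.08 and -0.03, and keratins 2 of 10 higher and 4 lower, with medians of 0.03 and -0.20; *KRT18* was at -0.57 and -0.49.

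Basal markers had 3 of 7 tested (42.9%) higher and 2 (28.6%) lower, against 10.7% and 13.3% over all genes tested. Their medians were -0.16 and -0.15. *KRT15* was higher at 0.78 and 0.80, while *TP63*, the basal transcription factor gene on chromosome 3, was lower at -0.79 and -1.12 and the laminin gene *LAMA3* at -0.997 and -0.60. Mesenchymal markers had 1 of 6 tested higher and 0 lower, blood cell markers 1 of 3 higher, *PTPRC*, and 1 lower, and endothelial markers 0 of 1 higher and 1 lower. *PTPRC* had edgeR adjusted p-values of 0.0989 and 0.0908, close to the threshold, and lost its call in 19 of 22 alternatives. *CD68*, the blood cell marker that was lower, lies in the segment of chromosome 17 and stood at -0.95 and -0.84. Growth factor receptors and ligands had 6 of 21 (28.6%) higher and 3 (14.3%) lower, against the same 10.7% and 13.3%. Their medians were -0.06 and -0.05. *IRS2*, 1 of the 6, lost its call in 11 of 22 alternatives. *FGFR2* was at 197, 214, 210.1 and 204 CPM in Clone 39 and 83.8 to 112 CPM in the others, with log2 fold changes of 1.19 (SE 0.0502) against Clone 28 and 1.01 (SE 0.0484) against Clone 35, and *INSR*, the insulin receptor gene, was lower at -0.73 and -0.47.

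Lists of stress and metabolism genes had different shares of calls. Over all genes tested, 10.7% were called higher and 13.3% lower. Immediate early genes had 0 of 21 higher and 5 (23.8%) lower, with medians of -0.06 and -0.15. *ATF3* was at -0.76 and -0.73 and *NR4A1* at -0.54 and -0.63. Heat shock genes had 1 of 17 (5.88%) higher and 6 (35.3%) lower, with medians of -0.14 and -0.09, and *HSPB1* was at -0.45 and -0.44. Integrated stress response genes had 4 of 16 (25%) higher and 1 (6.25%) lower, with medians of 0.06 and 0.07. Of these the amino acid transporter genes *SLC7A5*, at 0.83 and 0.78, and *SLC7A11*, at 1.08 and 1.09, and the stress regulator gene *NUPR1*, at 1.37 and 1.09, were higher, and only the libraries of *SLC7A11* overlapped between clones. Hypoxia and glycolysis genes had 3 of 18 (16.7%) higher and 7 (38.9%) lower, with medians of -0.14 and -0.17. *NDRG1* was at -0.98 and -1.36 and the hexokinase gene *HK2* at -0.79 and -1.09. Cholesterol synthesis genes had 8 of 22 (36.4%) higher and 4 (18.2%) lower, with medians of 0.09 and 0.09. The enzymes *SQLE* and *HMGCS1* were at 0.56 and 0.58 and at 0.59 and 0.50. Transcripts of the mitochondrial genome had 7 of 36 (19.4%) higher and 0 lower, with medians of 0.17 and 0.06.

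Replication-dependent histone genes were lower in Clone 39 in most of the list. Of 56 tested, 42 (75%) were called lower and 0 higher, against 13.3% and 10.7% over all genes tested, with medians of -0.40 and -0.25. Summed over the list, the libraries held 2824, 3299.5, 4028 and 4229.8 CPM in Clone 39, 3491, 4026, 5395 and 5911 in Clone 28, and 3272, 3698, 4767 and 5114 in Clone 35. The clones overlapped in these sums, and Clone 39 was the lowest within every replicate number. *H3C4* was at -1.06 and -0.61 and *H2AC4* at -1.01 and -0.72; of the 4 histone genes chosen for naming, *H2BC14*, *H3C4* and *H3C1* lost their calls without the block, and near-identical histone copies can share reads. Cell cycle genes had few calls. Of 25 genes of G1/S and DNA replication 2 (8%) were higher and 1 (4%) lower, with medians of -0.17 and 0.02. Of 25 genes of G2/M and mitosis 0 were higher and 1 (4%) lower, with medians of -0.22 and 0.10. Ribosomal protein genes had 1 of 78 (1.28%) higher and 11 (14.1%) lower, the latter near the 13.3% over all genes tested. Their medians were 0.01 and -0.02, and 7 of the 78 lie in called bins.

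Calls among imprinted genes and gene families that lie in clusters are given beside the shares over all genes tested, 10.7% higher and 13.3% lower. Clustered protocadherins had 1 of 47 (2.13%) higher and 25 (53.2%) lower, with medians of -0.54 and -0.50, and all 47 lie in the lower bin of chromosome 5. *PCDHGA1* was at 177, 168, 165 and 154 CPM in Clone 39 and 238 to 284 CPM in the others, and shares exons with the rest of its cluster. Imprinted genes had 2 of 19 (10.5%) higher and 7 (36.8%) lower, with medians of -0.19 and -0.11. *PEG10* and *SGCE*, neighbors that overlap on opposite strands, were at -1.24 and -1.32 and at -0.87 and -0.91, and *CDKN1C*, an inhibitor of cyclin-dependent kinases, at -1.49 and -1.26. *MEST* was called lower with 3 reads in all in Clone 39 and means of 3.83 CPM in Clone 28 and 2.09 in Clone 35, too few for a fold. Of 25 cancer-testis genes 4 were tested, with 0 higher and 3 lower and medians of -0.72 and -0.76: *MAGEA1* at -2.15 and -2.47, *TEX14* at -0.72 and -0.74 and *PRAME* at -0.71 and -0.78. Zinc finger genes of chromosome 19 had 5 of 238 (2.10%) higher and 29 (12.2%) lower, against 10.7% and 13.3% over all genes tested, with medians of -0.06 and -0.05. The largest difference among those chosen for naming was *ZNF175* at -1.41 and -1.62. HOX genes had 5 of 16 tested (31.25%) higher, all in the HOXC cluster, and 1 (6.25%) lower, with medians of 0.01 and 0.09. *HOXC4* was at 0.73 and 1.06 and *HOXC8* at 1.02 and 1.09, and neighbors of the cluster overlap on the same strand.

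Cadherins and other adhesion genes had 4 of 34 (11.8%) higher and 8 (23.5%) lower, against 10.7% and 13.3% over all genes tested. Their medians were -0.13 and 0.00, and 5 of the 34 lie in called bins. *DSCAM* was at 26.5, 25.3, 24.9 and 21.95 CPM in Clone 39, 78.5, 66.2, 72.04 and 62.02 in Clone 35 and 229.9, 194, 167 and 179.9 in Clone 28, with log2 fold changes of -2.97 and -1.51, and overlaps *DSCAM-AS1* on the other strand. *CDH18* was lower at -2.05 and -1.48, while *CNTN3*, at 1.49 and 1.70, and *CNTNAP4*, at 1.69 and 1.46, were higher. Genes often mutated or amplified in luminal tumors had 8 of 32 (25%) higher and 12 (37.5%) lower, with medians of -0.14 and -0.03. Of the 32, 5 lie in called bins. Among those lower were *MAP2K4* and *NCOR1* of chromosome 17 and the cyclin-dependent kinase gene *CDK6* at -0.56 and -0.80. Of 6 genes of the ligase and binding protein that dTAG-13 engages, 1 (16.7%) was higher and 1 (16.7%) lower, with medians of 0.11 and 0.13. *CUL4A*, in the higher segment of chromosome 13, was at 139.6, 132, 132 and 135 CPM in Clone 39 and 70.5 to 85.3 CPM in the others, with log2 fold changes of 0.83 (SE 0.0545) against Clone 28 and 0.73 (SE 0.0526) against Clone 35. *CRBN*, which encodes cereblon and lies in a lower segment of chromosome 3, was at 53.4, 52.9, 46.1 and 45.5 CPM against 56.2 to 77.01, with -0.38 (SE 0.0692) against Clone 28 and -0.46 (SE 0.0668) against Clone 35.

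The study's time course of Clone 28 gave lists of estrogen receptor targets that respond to TRPS1 loss, and since Clone 28 is a group here these are not independent of it. Of 65 targets activated by TRPS1 loss, 12 (18.5%) were higher and 28 (43.1%) lower in Clone 39. Over all genes tested these shares were 10.7% and 13.3%. The list had medians of -0.14 and -0.03, and 11 of the 65 lie in called bins. The transcription factor gene *GATA4* was at 2.81, 2.58, 1.898 and 2.99 CPM in Clone 39 and 7.25 to 12.2 CPM in the others, with log2 fold changes of -1.59 (SE 0.225) against Clone 28 and -2.06 (SE 0.206) against Clone 35. Of 58 listed targets repressed by TRPS1 loss, 57 were found and tested. Of these, 15 (26.3%) were higher and 14 (24.6%) lower, with medians of 0.00 and 0.02. *LNPEP*, an aminopeptidase gene, was at 452, 402, 360.3 and 376 CPM in Clone 39 and 165 to 184 CPM in the others, with log2 fold changes of 1.18 (SE 0.0434) against Clone 28 and 1.15 (SE 0.0428) against Clone 35.

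**Figure D4:**
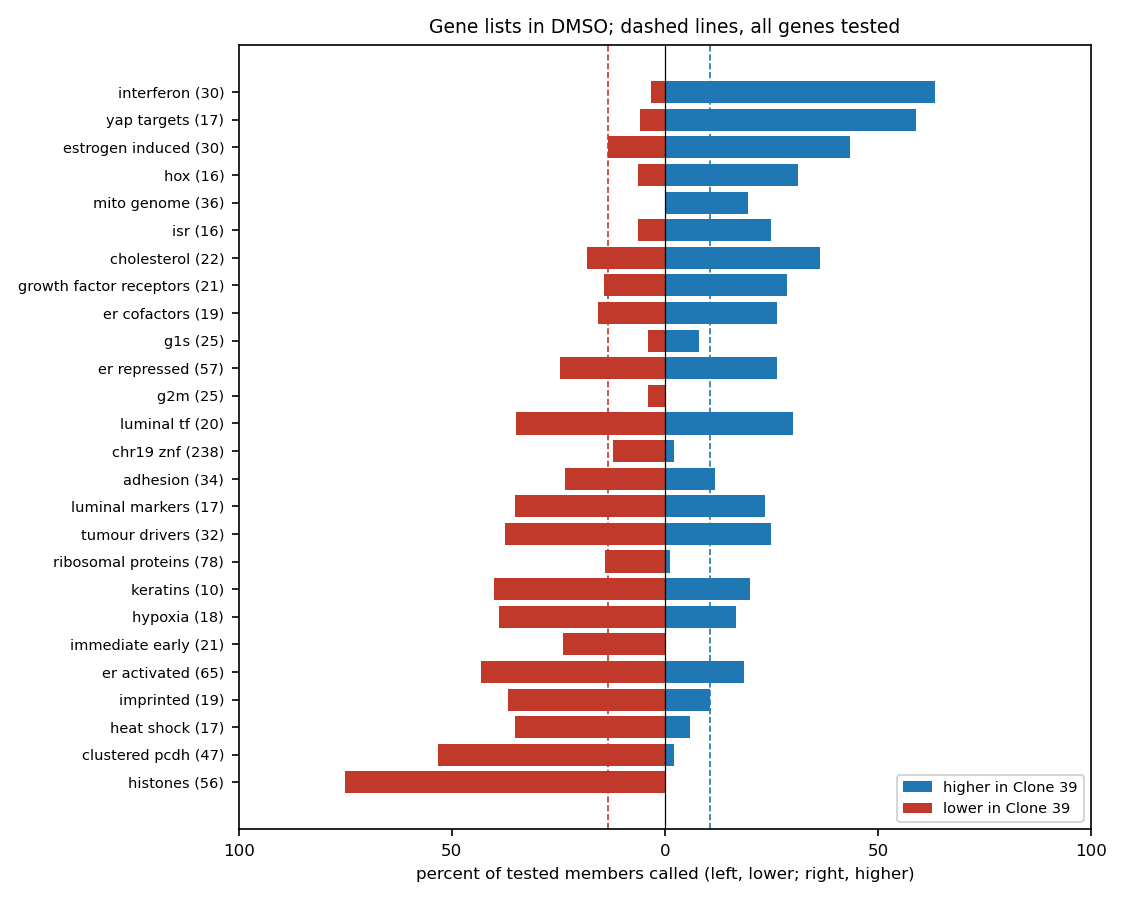
Percent of tested members called lower (left) and higher (right) in Clone 39 in DMSO for lists with at least 10 tested members, with the number tested in brackets; dashed lines mark the 13.3% lower and 10.7% higher over all genes tested. Interferon genes reach 63.3% higher and histone genes 75% lower.

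Many of these genes overlap others in the annotation. Of the 164 genes chosen for naming, 106 overlap a gene on the other strand and 82 one on the same strand. Whether the counting used strand is not given in the sources used here, so the reads of such pairs cannot be told apart.

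The dTAG-13 libraries, which the DMSO comparison did not use, gave the same comparison in other dishes of the 3 clones. There 2258 of 21529 genes tested (10.5%) were higher and 2760 (12.8%) lower in Clone 39. Of the genes called in DMSO, 1532 of 2266 higher and 2100 of 2828 lower were called in the same direction, and 0 in the opposite one. Without Clone 35 dTAG-13 replicate 2, chosen for leaving out after its values were seen, 2236 were higher and 2650 lower, and 1478 and 2047 were shared with DMSO. Of the bins, 44 (8.16%) were lower and 10 (1.86%) higher, and these hold 42 of the 45 lower and all 5 higher bins of DMSO. Leaving that library out gave 44 and 9. The 3 lower bins not called again lie on chromosomes 1, from 140 to 145 Mb and from 190 to 195 Mb, and 5, from 155 to 160 Mb. For each of the 7 segments ranked first, Clone 39 lay beyond both other clones within all 4 replicate numbers in dTAG-13. The exact two-sided permutation p within replicate numbers was 0.0247 for each of them, the smallest that 81 arrangements can give, so it does not rank them, and 0.0263 after Benjamini-Hochberg adjustment over 16 segments. The segments were chosen in DMSO dishes of these same clones, so this p speaks only of the spread between dishes. On chromosome 17 from 0 to 25 Mb the medians in dTAG-13 were -0.86 and -0.87, and on chromosome 3 from 95 to 170 Mb they were -0.50 and -0.54.

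Some leading genes stayed close to their DMSO values in dTAG-13 and others moved by more. *TGFBR3* was at 119, 93.9, 98.4 and 113 CPM in Clone 39 and 4.25 to 8.11 CPM in the 8 others, with log2 fold changes of 4.04 and 4.25. *BCHE* was at 5.75, 9.004, 7.19 and 5.64 CPM against 184 to 288, with -5.19 and -4.94, *SKAP2* stood at -4.31 and -4.85 and *NTN4* at 4.36 and 4.20. *TMEM52B* moved against Clone 35, to 4.07 and 2.64. *P2RY10* was at 0, 0.772, 0.312 and 0.188 CPM in Clone 39 and 5.87 to 16.1 CPM in the others, and *SIGLEC6* at 0, 0, 0 and 0.376 against 23.4 to 46.4. *OLR1* was at 6.25, 5.66, 12.8 and 8.46 CPM in Clone 39, 1.495, 0.2098, 0.833 and 0.714 in Clone 35 and 0, 0, 0.157 and 0 in Clone 28. The last 3 have few reads in 1 clone, and their fold changes in dTAG-13 lay further from 0 than in DMSO. *TRPS1* was at 9335, 8710.3, 7624 and 7509 CPM in Clone 39 and 6304 to 8584 CPM in the others, with log2 fold changes of 0.19 and 0.13. Whether the Clone 39 difference itself depended on treatment was tested over all 24 libraries. In edgeR's quasi-likelihood test, 0 of 22326 genes had an interaction past the adjusted threshold, and 1037 (4.64%) had an unadjusted p under 0.05. With the block set within each clone the counts were 0 and 979. Without Clone 35 dTAG-13 replicate 2, 4 of 22728 genes passed, and 1304 (5.74%) were under 0.05 before adjustment. Named after their values were seen, they are the small RNA genes *SNORA14B*, *SNORA31B*, *U2* and *SNORA36A*, with interaction log2 fold changes of 1.42, 1.47, 0.42 and 2.02 and an edgeR adjusted p of 0.0773 each. *SNORA14B* was at 6.16, 3.29, 3.31 and 3.22 CPM in Clone 39 in DMSO and 5.64, 5.85, 4.34 and 2.46 CPM in dTAG-13, while the DMSO libraries of Clone 28 held 18.4, 8.22, 10.2 and 5.09 CPM and its dTAG-13 libraries 3.76, 3.58, 2.83 and 1.55. For Clone 35 the DMSO libraries held 6.06, 6.02, 3.95 and 2.53 CPM of *SNORA14B* and the dTAG-13 libraries 4.83, 10.2, 1.98 and 1.73, where the library left out is the highest and the difference between treatments is smaller than in Clone 28.

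**Figure D5:**
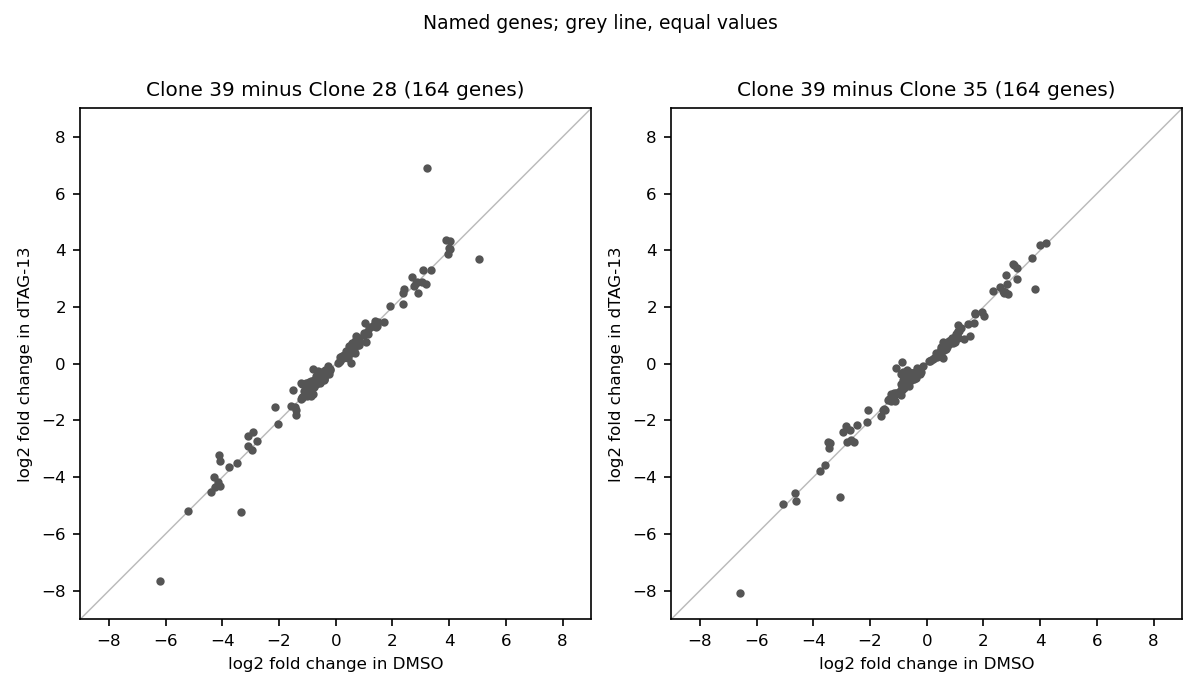
Log2 fold change of Clone 39 against Clone 28 (left) and Clone 35 (right) in dTAG-13 (vertical axis) and in DMSO (horizontal axis) for the genes chosen for naming; each point is 1 gene and the grey line marks equal values. *SKAP2* is at -4.06 and -4.60 in DMSO and at -4.31 and -4.85 in dTAG-13.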

How the data were processed

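PRO-seq counts per gene were taken as deposited for all 24 libraries. Per the submitters' processing notes, the authors trimmed reads with cutadapt 1.8.1, aligned them to hg38 with Bowtie2 2.4.4 and handled alignments with SAMtools 1.9. The counts deposited by the authors are whole numbers without scaling. The annotation and strand used for counting are not given in the sources used here. Of 60605 identifiers, 60463 matched GENCODE 44, and 0 value columns were unmapped.

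The 12 DMSO libraries were filtered with filterByExpr, scaled with TMM and fitted with edgeR 4.0.16 (quasi-likelihood, R 4.3.3) with clone and replicate number. A gene was called at a Benjamini-Hochberg adjusted p under 0.1 against Clone 28 and against Clone 35 in the same direction. The SE is the log2 fold change over the square root of F. Bins of 5 Mb with at least 10 genes were scored from log2 CPM (prior count 2) and tested with limma 3.58.1 at the same adjusted p and a difference of at least 0.2. The fits were tested on simulated data. DESeq2 1.42.0, other scalings, filters and bins, and each library left out were tried. After replicate-number pairing was checked, the 12 pairs of the same number had correlations of 0.156 to 0.372 (mean 0.253), and the number was kept as a block. Pairs of different numbers had -0.331 to 0.276 (mean -0.0838); the ranges overlap, and numbers 1 and 2, like numbers 3 and 4, also correlate across clones. Over all 276 library pairs the chi-square per degree of freedom was 1.58 to 13.6, and 4.22 for Clone 28 DMSO replicate 1 with Clone 35 dTAG-13 replicate 2, where a copied column would give 0.

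Genes were named by rule: the 15 called higher and 15 called lower with the largest smaller difference, no overlap and at least 5 CPM in some clone, the 10 called with the most reads, 3 for each of 6 segments, *TRPS1*, and the leading genes of each list. Lists cover luminal factors and markers, basal, mesenchymal, blood cell and endothelial markers, keratins, estrogen-induced genes, estrogen receptor cofactors and targets, growth factor receptors, YAP output, immediate early, heat shock, integrated stress, hypoxia, cholesterol, interferon, G1/S, G2/M, degron ligase, cancer-testis, imprinted, adhesion, tumor driver, mitochondrial genome, protocadherin, chromosome 19 zinc finger, HOX, histone and ribosomal protein genes. Members and lists were chosen with earlier results of these data known. Some items are not reported here.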

Additional observations from a re-analysis of the deposited data

Results flagged for a closer look

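In 21 of 456 groups of 4 libraries (4.61%), about the 1 in 20 that chance gives, 1 library lay far from the other 3. The groups were those of named genes in DMSO and of segment scores in DMSO and in dTAG-13. All those flagged were genes in DMSO. The value given is the gap to the nearest other library as a share of the range, followed by the CPM of replicates 1 to 4. In Clone 39 these were *CCN5* at 0.928 (7.43, 5.42, 7.59, 7.58), *BCHE* at 0.84 (5.83, 5.67, 4.34, 5.59) and *GSE1* at 0.875 (1625, 1377, 1342, 1363). Clone 39 also had *HSPB1* at 0.905 (98.04, 116, 117, 117), *SGCE* at 0.846 (20.7, 17.5, 17.3, 16.96) and *LMCD1* at 0.982 (85.8, 49.8, 50.4, 49.9). In Clone 28 these were *ARHGAP22* at 0.948 (6.25, 4.63, 4.55, 4.54), *SSTR2* at 0.944 (0.751, 0.631, 0.6495, 2.76) and *NECAB1* at 0.913 (1.501, 1.47, 1.52, 1.97). Clone 28 also had *GJA1* at 0.841 (19.01, 10.7, 10.8, 9.27), *PTGES* at 0.844 (65.04, 38.3, 33.3, 37.1) and *GSE1* at 0.966 (1290.4, 1212, 1209, 1209). Clone 28 also had *CD68* at 0.875 (20.3, 15.98, 15.4, 15.98), *ANKRD1* at 1 (0, 0, 0, 0.197) and *CDKN1C* at 0.832 (3.75, 3.15, 6.71, 3.35). Clone 28 also had *HOXC8* at 0.84 (9.76, 7.36, 6.93, 6.91). In Clone 35 these were *PAMR1* at 0.895 (6.44, 4.22, 4.03, 4.28), *NECAB1* at 0.85 (1.43, 1.52, 0.9296, 1.52) and *CARS2* at 0.887 (91.4, 89.7, 90.2, 105). Clone 35 also had *CRBN* at 0.855 (65.6, 77.01, 63.7, 65.1) and *LMCD1* at 0.888 (171, 126, 128, 131). The 1 library of Clone 28 with *ANKRD1* holds 1 read. The cause of these values was not tested.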

How the results depend on the processing

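Without the replicate block the number of genes that differ in Clone 39 was 3327 against 5094, and with DESeq2 it was 3013; the cause was not tested. Without the block the call of *TRPS1* was lost at 0.15. The other settings gave 4250 (adjusted p under 0.05) to 5144 (DESeq2 size factors), and leaving out 1 library gave 4444 to 4828, with 544 to 599 genes of at least 2-fold against 533, 0.13 to 0.17 for *TRPS1* and 46 to 51 bins against 50. Bins of 10 Mb gave 22 (1 higher, against 5), being fewer and larger by construction; the mean over genes gave 64 (12 higher), at least 5 genes a bin 59 and protein-coding genes only 38. With libraries left out, segment differences were -0.51 to -0.48 on chromosome 3 from 95 to 170 Mb, -0.83 to -0.80 on chromosome 17, -0.31 to -0.29 and -0.33 to -0.31 on chromosome 3 from 0 to 45 and from 175 to 200 Mb, -0.31 to -0.28 on chromosome 10 and 0.34 to 0.39 on chromosome 13. Scaling from genes outside the called bins, chosen after seeing the data, gave 5042 genes, 538 of at least 2-fold and 51 bins. Also chosen after seeing the data, leaving out Clone 35 dTAG-13 replicate 2 gave 4886 genes against 5018 and 53 bins against 54 in dTAG-13, and 4 genes against 0 for the interaction; the cause was not tested. Of 163 named genes, 139 kept their call in every alternative that tested them, which is 22 for each but *ANKRD1* with 20, 24 lost it in at least 1 and 0 reversed. *PTPRC* lost its call with any of the 12 libraries left out. Depth limits the genes with few reads, and thinning to the smallest library gave 4395 genes.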
